A study of Saccharomyces cerevisiae with 12 samples.

Results

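The Ty retrotransposon frames are the protein-coding frames of the mobile elements Ty1, Ty2, Ty3 and Ty4 of budding yeast, Saccharomyces cerevisiae. They were taken by name from a list of 50 targets, all of which were found among the 6713 targets of the deposited libraries. By the RefSeq annotation of the R64 genome, 31 of them are Ty1 gag-pol frames, 7 are Ty1 gag frames, 8 are Ty2 gag-pol frames, 2 are Ty3 gag-pol frames and 2 are Ty4 gag-pol frames. The files hold 91 Ty frames in all, so 41 lie outside the list, most of them gag frames (25 of Ty1 and 10 of Ty2). The low-count filter kept 49 of the 50 frames, and the frame left out was the Ty1 gag-pol frame YDR316W-B.

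A Ty element is a retrotransposon: it is copied into RNA by RNA polymerase II from a promoter in its left long terminal repeat, the RNA is copied back into DNA by the element's own reverse transcriptase, and the DNA is inserted elsewhere. Its gag frame encodes the capsid protein that packs the RNA into virus-like particles. Its pol frame encodes protease, integrase and reverse transcriptase. It is made only as a Gag-Pol fusion, when the ribosome shifts forward by a single base near the end of gag. Ty1 and Ty2 are related (copia-like), Ty3 is gypsy-like, and these elements usually insert beside genes transcribed by RNA polymerase III.

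RNA was sequenced from 4 haploid strains of mating type alpha in the S288c background, with 3 libraries each, grown in synthetic defined medium to the same optical density. The strains were wild type, a deletion of RPD3 (RPD3 KO), and serine-to-alanine point mutants in the Rpd3 protein (RPD3 S418A) and in the Swi3 protein (SWI3 S237A). Rpd3 is a histone deacetylase and Swi3 is a subunit of the SWI/SNF chromatin remodeller. The labels share a treatment text that mentions caffeine for part of the samples, and none of the 12 libraries is labelled as treated. Nothing in the labels ties the replicates to separate cultures, so p-values measure the spread between these libraries, and the 3 comparisons with wild type share its libraries.

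The libraries held 18.3 M to 27 M estimated counts. RPD3 had 0 counts in each RPD3 KO library and 108 ± 4.49 CPM (SD, n = 3) in wild type, and SWI3 was at 86.7 ± 1.98 CPM in SWI3 S237A and 81.4 ± 7.66 CPM in wild type. CPM means estimated counts per 1 M of the TMM-scaled library size. The alpha-cell pheromone gene MF(ALPHA)1 was at 931 ± 56.7 CPM and the a-cell pheromone gene MFA1 at 0.202 ± 0.0591 CPM in wild type, as the labelled mating type has it. Of the 5 a-cell genes listed, the most abundant in wild type was STE6, the a-factor exporter gene, at 18.1 ± 0.86 CPM. Of the 4 alpha-cell genes, 4 fell in RPD3 KO, and in SWI3 S237A 3 fell and 1 rose. Of the 4 a-cell genes tested, 2 rose and 2 fell in RPD3 KO, and 1 rose and 1 fell in SWI3 S237A. Of all targets tested, edgeR called 31.9% higher and 38.0% lower in RPD3 KO, and 28.7% higher and 31.3% lower in SWI3 S237A.

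The copies are so alike that a read often fits several of them. Of the 50 frames, 20 had no 31-base word of their own among all targets found in the reference, the 7 gag frames among them, and 45 had under 5% of such words. The 5 with more were the Ty1 frame YNL054W-B (5.995%), the Ty2 frame YBL100W-B (7.135%), the Ty3 frames YGR109W-B (22.9%) and YIL082W-A (24.5%), and the Ty4 frame YJL113W (17.8%). There were 3 pairs of frames with identical sequence, YAR010C and YPR137C-A, YDR316W-A and YGR161C-C, and YFL002W-A and YGR161W-B. The Ty2 gag-pol frames shared 17.2 to 19.2% of their words with Ty1 frames, whereas the Ty3 and Ty4 frames shared 0 words with Ty1 or Ty2 frames. Families are therefore separated by sequence better than copies are, and levels of single copies rest on how kallisto divided shared reads.

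The site at which the ribosome shifts frame shows how the frames are built. It is given here with its heptamer in capitals, as read from the R64 sequence (RefSeq), 5′ to 3′ on the coding strand. The Ty1 site is from YDR365W-B at chrIV:1208287-1208316 (plus strand), the Ty2 site from YFL002W-A at chrVI:139482-139511 (plus strand), the Ty3 site from YGR109W-B at chrVII:708450-708479 (plus strand) and the Ty4 site from YJL113W at chrX:198987-199016 (plus strand).
Ty1: cacgaccttcacCTTAGGCcaggaacttac
Ty2: aacgaacttagtCTTAGGCcagcaacagaa
Ty3: agagcacgtaagGCGAGTTctaaccgatct
Ty4: ccaaatagggaaCTTAGGCctgactcgacc
The Ty1, Ty2 and Ty4 sites share the heptamer, and the Ty3 sites have another. The heptamer CTTAGGC was present at the frame junction of 29 of 31 Ty1 frames, 8 of 8 Ty2 frames and 2 of 2 Ty4 frames, and GCGAGTT at that of 2 of 2 Ty3 frames. The 2 Ty1 frames without a junction, YAR009C and YLR035C-A, are annotated as single coding stretches.

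The frames lie on 15 chromosomes, with 10 of them on chromosome IV. They belong to 42 of the 50 annotated Ty elements, and YLR035C-A lies in no annotated element. Of the 42 elements, 31 (73.8%) lay within 750 bases of a tRNA gene, against 318 of 5917 other protein-coding targets (5.4%). Stretches of 300 bases around the start of the coding frame (250 before and 50 after its first base) are shown for a Ty1, a Ty2 and a Ty3 frame, because the families moved differently between strains, and for YLR035C-A, which rose most in RPD3 KO. They were read from R64 (RefSeq), 5′ to 3′ on the coding strand: YDR365W-B at chrIV:1206747-1207046 (plus), YFL002W-A at chrVI:137954-138253 (plus), YGR109W-B at chrVII:707360-707659 (plus) and YLR035C-A at chrXII:218858-219157 (minus). Capitals mark, on either strand, 4 motifs, whose matches do not overlap in the stretches shown. One is TATAAA, the core promoter motif. The Tec1 motif is CATTCC, as known from Ty1 itself. For Ste12 the motif searched was TGAAACA, which it binds in pheromone-response genes. For Gcn4 it was TGACTC, found at amino acid synthesis genes.
YDR365W-B: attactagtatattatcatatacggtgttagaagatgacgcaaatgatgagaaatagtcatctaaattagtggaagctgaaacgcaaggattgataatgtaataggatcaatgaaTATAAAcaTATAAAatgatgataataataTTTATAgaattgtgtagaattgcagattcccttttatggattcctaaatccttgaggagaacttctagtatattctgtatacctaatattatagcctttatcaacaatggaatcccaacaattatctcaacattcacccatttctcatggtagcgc
YFL002W-A: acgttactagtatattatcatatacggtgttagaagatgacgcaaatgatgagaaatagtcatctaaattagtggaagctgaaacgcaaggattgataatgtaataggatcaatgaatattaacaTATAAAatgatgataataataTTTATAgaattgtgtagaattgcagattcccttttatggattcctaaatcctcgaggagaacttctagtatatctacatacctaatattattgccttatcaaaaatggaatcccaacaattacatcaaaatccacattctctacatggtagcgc
YGR109W-B: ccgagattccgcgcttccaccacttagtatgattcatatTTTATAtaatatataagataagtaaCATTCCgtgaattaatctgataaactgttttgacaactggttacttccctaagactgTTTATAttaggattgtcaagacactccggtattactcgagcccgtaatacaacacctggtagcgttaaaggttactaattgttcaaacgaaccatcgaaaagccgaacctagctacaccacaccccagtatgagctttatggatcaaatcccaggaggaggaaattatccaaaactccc
YLR035C-A: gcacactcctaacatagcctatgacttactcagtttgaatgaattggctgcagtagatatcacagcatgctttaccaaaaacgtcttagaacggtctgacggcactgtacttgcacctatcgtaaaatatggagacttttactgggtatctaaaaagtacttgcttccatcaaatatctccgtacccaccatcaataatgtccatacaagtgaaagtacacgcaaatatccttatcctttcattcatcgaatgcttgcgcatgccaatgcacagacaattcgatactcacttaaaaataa
The stretch of YLR035C-A, a truncated frame that lies in no annotated element, holds none of the 4 motifs. Whether this stretch holds a promoter was not tested. Windows of copies are often identical: those of the 31 Ty1 gag-pol frames hold 22 distinct sequences, of the 8 Ty2 frames 7 and of the 2 Ty3 frames 1. The percentages therefore count copies and not independent cases. CATTCC was found in this window of 64.5% of the 31 Ty1 gag-pol frames, 12.5% of the 8 Ty2 frames and both Ty3 frames, against 10.9% of 6007 targets. TATAAA was found in 93.5% of the Ty1 gag-pol frames and 100% of the Ty2 frames, against 45.4% of all targets. TGAAACA was found in 25.8% of the Ty1 gag-pol frames and 0% of the Ty2 frames, against 7.5% of all targets, and TGACTC in 0% of either, against 8.0%. Only exact matches were counted. The Ty1 and Ty2 stretches shown hold tgaaacg, which differs from TGAAACA in its last base. A short motif for Gcr1, CTTCC, was present in 100% of the Ty1 and Ty2 gag-pol frames and in 46.3% of all targets. A match is a description of these letters and not a site known to be used.

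In wild type cells, Ty RNA made up 1.13 to 1.24% of all counts, and nearly all of it was Ty1. The 50 frames summed to 13350, 11507 and 11816 CPM in wild type replicates 1, 9 and 17. The Ty1 gag-pol frames held 11300 ± 951 CPM of this (SD, n = 3), the Ty2 gag-pol frames 726.8 ± 49.6 CPM, the Ty3 frames 167.7 ± 14.1 CPM and the Ty4 frames 24.88 ± 1.74 CPM. Among Ty1 gag-pol frames, 5 copies took 52.1% of the Ty1 gag-pol counts of wild type, led by YDR365W-B (16.8%), YER138C (14.3%) and YGR027W-B (8.65%). Per length, on the TPM scale, mean levels of Ty1 gag-pol frames in wild type ran from 302 for YDR365W-B to 0.00118 for YDR316W-B, and those of the Ty3 frames were 14.9 and 13.1. How much of this range is the division of shared reads was not tested. YDR365W-B and YER138C also took the largest shares in each mutant.

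All 3 mutants had less Ty RNA in total than wild type, in the order RPD3 S418A, RPD3 KO and SWI3 S237A. The summed frames were at 10343, 9756.6 and 7959.8 CPM in RPD3 S418A replicates 3, 11 and 19, at 7540.8, 6237.1 and 7473.8 CPM in RPD3 KO replicates 4, 12 and 20, and at 4706.8, 4334.3 and 4468.1 CPM in SWI3 S237A replicates 2, 10 and 18. No library of any mutant reached the lowest wild type library, and the ranges of the 4 strains did not overlap on this scale. Without TMM scaling RPD3 S418A and RPD3 KO overlapped, at 0.7708 to 1.002% and 0.6662 to 0.8273% of all counts, as they did on the TPM scale (1302 to 1672.4 and 1162.7 to 1471.3), whereas wild type stayed above and SWI3 S237A below both on either scale. Against the wild type mean of 12220 ± 987 CPM (SD, n = 3), the sum was 76.5% in RPD3 S418A (9353 ± 1240 CPM), 57.9% in RPD3 KO (7084 ± 734 CPM) and 36.8% in SWI3 S237A (4503 ± 189 CPM). With all 91 Ty frames of the files summed, these percentages were 76.9, 58.3 and 39.9. On the TPM scale the log2 ratio in SWI3 S237A was -0.91 in place of -1.44 and in RPD3 KO -0.54 in place of -0.79. That scale weighs short frames more and has no TMM scaling. The listed gag frames, which are short, were at 0 TPM in wild type and RPD3 KO. No p is given for a sum over frames chosen as a list, and in bulk RNA fewer cells with Ty RNA and less Ty RNA per cell cannot be told apart.

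**Figure D1:**
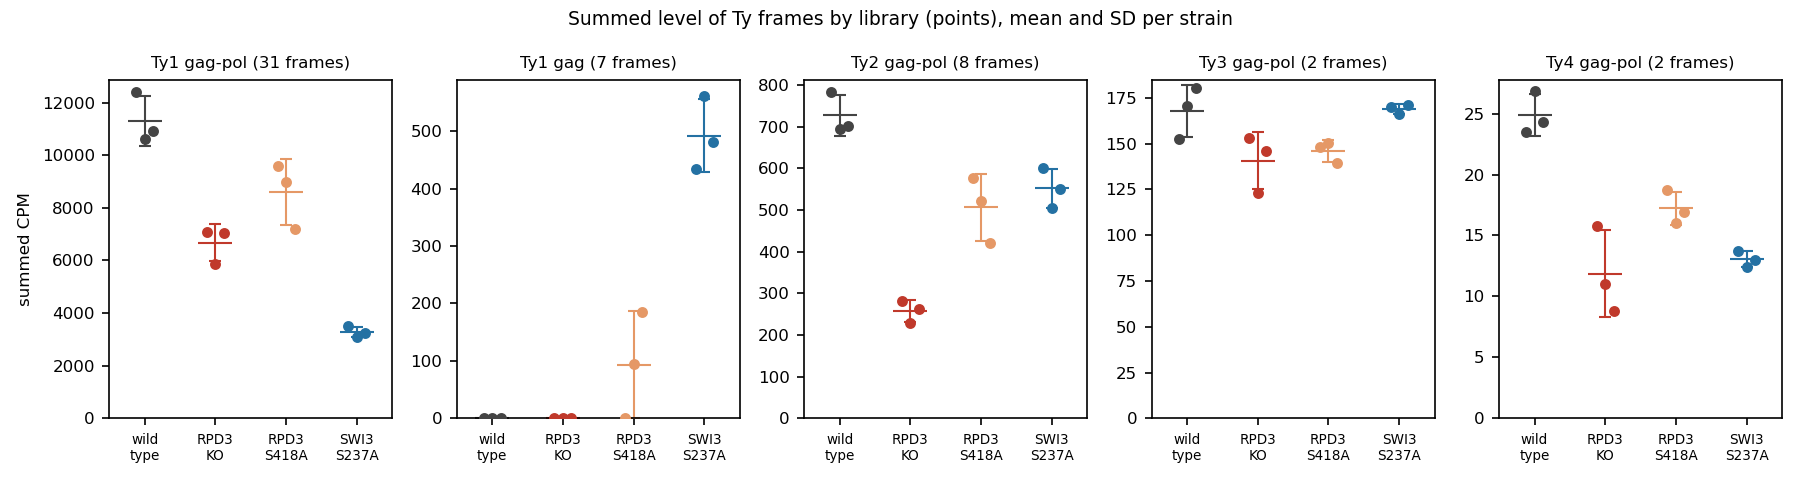
Summed CPM of the 5 classes of Ty frames (vertical axes, each from 0) in the 4 strains (horizontal axes), with a point per library, a bar for the mean and whiskers for the SD (n = 3). Ty1 gag-pol was lowest in SWI3 S237A (3277 ± 201 CPM) and Ty2 gag-pol was lowest in RPD3 KO (257.1 ± 27.2 CPM), whereas Ty3 stayed between 123 and 180.25 CPM in every library.

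Without RPD3, all 8 Ty2 gag-pol frames on the list and 17 of 30 Ty1 gag-pol frames fell. Of 42 gag-pol frames tested, 28 fell, 3 rose and 11 were not called by edgeR at an adjusted p under 0.05, where 69.9% of all 6327 targets tested were called (31.9% higher and 38.0% lower). The median log2 change of the gag-pol frames was -0.93, against -0.06 over all targets tested. The 7 gag frames had 0 counts in both strains. In the authors' deposited table, 26 of the 50 frames were lower and 2 higher at an adjusted p under 0.05. The share over all targets in that table was not computed.

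The listed Ty2 gag-pol frames fell in 8 of 8 cases in RPD3 KO, with log2 changes from -1.80 to -0.99 and a median of -1.52. Their sum was 281.85, 228.07 and 261.45 CPM in RPD3 KO and 783.91, 694.74 and 701.73 CPM in wild type, far apart in every library. This sum was at 35.4% of the wild type mean, and that of all Ty2 frames in the files at 45.4%. Of the Ty2 gag-pol frames outside the list, YOR343W-B was not called in RPD3 KO. The other, YLR410W-B, was lower in every RPD3 KO library than in any wild type library. The most abundant Ty2 sequence, shared by YFL002W-A and YGR161W-B, was read at 66.9, 51.6 and 62 CPM for each copy in RPD3 KO replicates 4, 12 and 20. In wild type replicates 1, 9 and 17 each copy was read at 189, 168 and 171 CPM. Every RPD3 KO library was below every wild type library, and YFL002W-A fell by 1.55 ± 0.12 on the log2 scale (edgeR adjusted p = 1.4e-07). YOR192C-B was at 36.7 ± 1.36 CPM in RPD3 KO and 114 ± 12.6 CPM in wild type, and fell by 1.63 ± 0.14 on the log2 scale (edgeR adjusted p = 4.5e-07).

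The Ty1 gag-pol frames were mixed: 17 of 30 fell, 3 rose and 10 were not called in RPD3 KO, with a median log2 change of -0.71. The most abundant copy, YDR365W-B, was at 1301, 1120.2 and 1214 CPM in RPD3 KO and at 2017, 1823 and 1873 CPM in wild type, and fell by 0.65 ± 0.12 on the log2 scale (edgeR adjusted p = 0.000323). YER138C was at 868, 605 and 923 CPM in RPD3 KO and 1933, 1507 and 1413 CPM in wild type, and fell by 1.02 ± 0.19 on the log2 scale (edgeR adjusted p = 0.000443). The wild type and RPD3 KO libraries did not overlap for either copy. The largest falls were those of YPL257W-B, at 11.8 ± 10.6 CPM in RPD3 KO and 355 ± 103 CPM in wild type (log2 -4.89 ± 0.86, edgeR adjusted p = 0.000681), and YPR137C-B, at 36.9 ± 28.6 and 517 ± 128 CPM (log2 -3.80 ± 0.54, edgeR adjusted p = 0.000134). YDR261C-D was at 16.1 ± 11.2 CPM in RPD3 KO and 122 ± 50.9 CPM in wild type (log2 -2.92 ± 0.54, edgeR adjusted p = 0.000842). YPL257W-B and YPR137C-B have 0 words of their own, and their replicates varied widely.

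A few Ty1 frames went the other way in RPD3 KO. YLR035C-A, a truncated frame on chromosome XII at 215440 to 218907 (minus strand), was at 142, 155 and 122 CPM in RPD3 KO replicates 4, 12 and 20. It was at 1.56, 3.92 and 4.76 CPM in wild type, and no RPD3 S418A library exceeded 2.61 CPM. It rose by 5.36 ± 0.39 on the log2 scale (edgeR adjusted p = 4.64e-06), a ratio of means of 40.9. Of its words, 92.8% also occur in the Ty1 frame YER160C, which fell by 1.93 ± 0.39 on the log2 scale (edgeR adjusted p = 0.00147), so an exchange of reads between copies was not tested and cannot be told apart from a change of the RNA. YBR012W-B rose by 0.58 ± 0.11 (log2; 125 ± 16.1 against 83.2 ± 5.77 CPM; edgeR adjusted p = 0.000368). YNL054W-B, which has more words of its own than any other Ty1 member, was at 139, 133 and 160.4 CPM in RPD3 KO and 112, 114 and 109 CPM in wild type, a rise of 0.37 ± 0.10 on the log2 scale (edgeR adjusted p = 0.00592). The truncated frame YAR009C on chromosome I was at 401 ± 21.6 CPM against 272 ± 36.1 CPM (log2 0.56 ± 0.25) and missed the threshold (edgeR adjusted p = 0.0668).

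**Figure D2:**
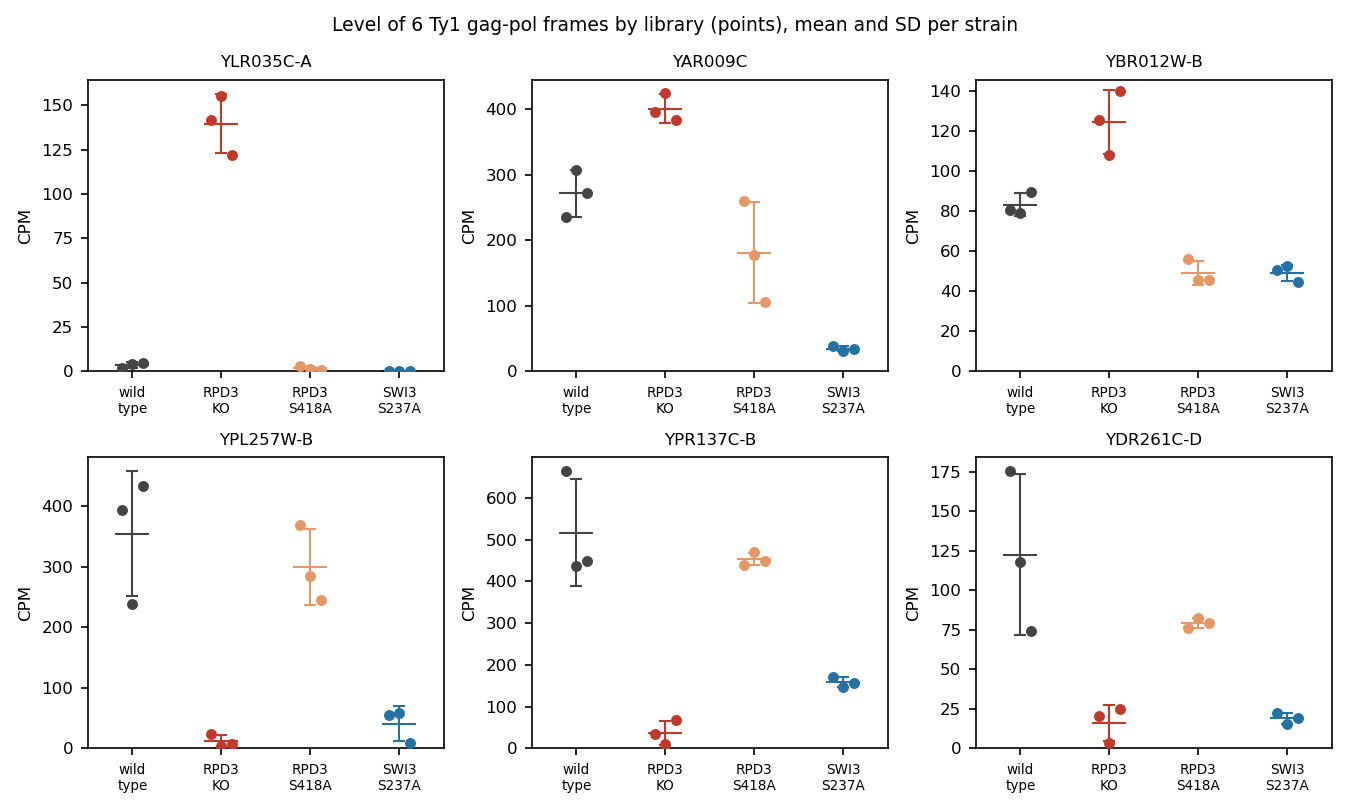
CPM (vertical axes, each from 0) of 6 Ty1 gag-pol frames in the 4 strains (horizontal axes), with a point per library, a bar for the mean and whiskers for the SD (n = 3). YLR035C-A stood at 122 to 155 CPM in RPD3 KO and at no more than 4.76 CPM elsewhere, whereas YPL257W-B and YPR137C-B were read at no more than 66.9 CPM in RPD3 KO.

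Ty3 and Ty4 moved little or were thinly read in RPD3 KO. The Ty3 frame YIL082W-A was at 69.6, 53.9 and 63.7 CPM in RPD3 KO and 70.7, 79.9 and 83.3 CPM in wild type, a fall of 0.32 ± 0.09 on the log2 scale (edgeR adjusted p = 0.00753), and it lost the call when only total counts were used for scaling (log2 -0.14) and in a fit of the 2 strains alone (log2 -0.27, edgeR adjusted p = 0.0541). The other Ty3 frame, YGR109W-B, overlapped between the strains (78.3 ± 7.8 and 89.7 ± 7.65 CPM, log2 -0.20 ± 0.09, edgeR adjusted p = 0.0657). The Ty4 frame YHL009W-B was at 7.89, 3.39 and 0 CPM (rounded) in RPD3 KO and 14.1, 16.9 and 12.6 CPM in wild type, and fell by 1.93 ± 0.75 on the log2 scale (edgeR adjusted p = 0.041). YJL113W was at 8.11 ± 0.605 CPM in RPD3 KO and 10.4 ± 1.23 CPM in wild type, and fell by 0.35 ± 0.15 on the log2 scale (edgeR adjusted p = 0.0471). Both Ty4 calls lie close to the threshold and were lost with DESeq2, with total counts as scaling (log2 -1.75 and -0.17) and in a fit of the 2 strains alone (log2 -1.88 and -0.30), and that of YJL113W also with RLE factors (log2 -0.30). That of YHL009W-B was also lost on leaving out any single wild type library or RPD3 KO replicate 12 (log2 -2.02 to -1.81), and that of YJL113W on leaving out wild type replicate 9, wild type replicate 17 or any RPD3 KO library (log2 -0.41 to -0.26).

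In SWI3 S237A, Ty1 gag-pol RNA was 29% of wild type, Ty2 was lowered less and Ty3 was level. Of 42 gag-pol frames tested, 27 fell, 0 rose and 15 were not called, where 60.0% of all targets tested were called by edgeR (28.7% higher and 31.3% lower). The median log2 change of the gag-pol frames was -1.11, against -0.02 over all targets tested. No gag-pol frame on the list was higher at an unadjusted p under 0.05 either (0 by edgeR), nor by DESeq2 (0). Outside the list, the Ty2 gag-pol frame YOR343W-B was called higher, at 125 ± 1.39 CPM against 93.3 ± 6.41 CPM (log2 0.42 ± 0.07, edgeR adjusted p = 0.000237). The authors' deposited table lists 28 of the 50 frames as lower and 5 as higher in this comparison. Those 5 were all gag frames with 0 counts in wild type. The share over all targets in that table was not computed.

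Of 30 Ty1 gag-pol frames, 22 fell in SWI3 S237A, with a median log2 change of -1.79. YDR365W-B was at 531, 451 and 506 CPM in SWI3 S237A replicates 2, 10 and 18, a fall of 1.94 ± 0.12 on the log2 scale from wild type (edgeR adjusted p = 5.55e-08). YER138C was at 284, 337 and 421 CPM and fell by 2.22 ± 0.19 on the log2 scale (edgeR adjusted p = 2.04e-06). YJR029W was at 171 ± 16.1 CPM against 877 ± 97.3 CPM, a fall of 2.36 ± 0.15 on the log2 scale (edgeR adjusted p = 4.62e-08). These 3 abundant copies were at 0.26, 0.215 and 0.195 of their wild type means, with no overlap between libraries. YAR009C was at 38.4, 31.2 and 33.4 CPM, against 235, 308 and 272 CPM in wild type, and fell by 2.98 ± 0.27 on the log2 scale (edgeR adjusted p = 5.84e-06). YLR035C-A had 0 counts in all 3 libraries and was at least 29.4-fold lower than in wild type, with a floor of 3 counts per library. That floor covers counting error only. An exchange of reads with other copies was not tested, so the fold is no lower bound on a change of its RNA. YML039W was at 1.02 ± 1.72 CPM against 18 ± 18.5 CPM and fell by 4.06 ± 1.34 on the log2 scale (edgeR adjusted p = 0.0259). It lost that call without wild type replicate 17 (log2 -2.83), without SWI3 S237A replicate 10 (log2 -3.50) and without replicate 18 (log2 -3.52).

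YNL054W-B, the Ty1 frame with the most words of its own, was at 103 ± 4.69 CPM in SWI3 S237A and 112 ± 2.39 CPM in wild type, a log2 difference of -0.12 ± 0.10 that was not called (edgeR adjusted p = 0.327). YNL284C-B differed by -0.03 ± 0.12 (log2; 93 ± 8.94 against 95.2 ± 5.15 CPM; edgeR adjusted p = 0.829). Over the 5 gag-pol frames with at least 5% of their own words the log2 changes in SWI3 S237A ran from -0.68 to 0.01, and over the 12 tested frames with 0 such words from -3.12 to -0.59. In RPD3 KO the same groups ran from -0.99 to 0.37 and from -4.89 to 0.24. The 5 frames hold members of all 4 families. Within Ty1, the 8 gag-pol frames with at least 1% of their own words, a limit chosen after the values were seen, had a median log2 change of 0.28 in RPD3 KO (3 rose, 1 fell and 4 were not called). The 10 tested Ty1 gag-pol frames with 0 such words had a median of -1.01 (7 fell, 0 rose and 3 were not called). In SWI3 S237A the medians of the same groups were -2.02 (6 of 8 fell) and -1.75 (8 of 10 fell). Within Ty2 in RPD3 KO, the 6 frames with at least 1% had a median of -1.43 and the 2 with 0 had -1.55. No test of these differences was made.

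**Figure D3:**
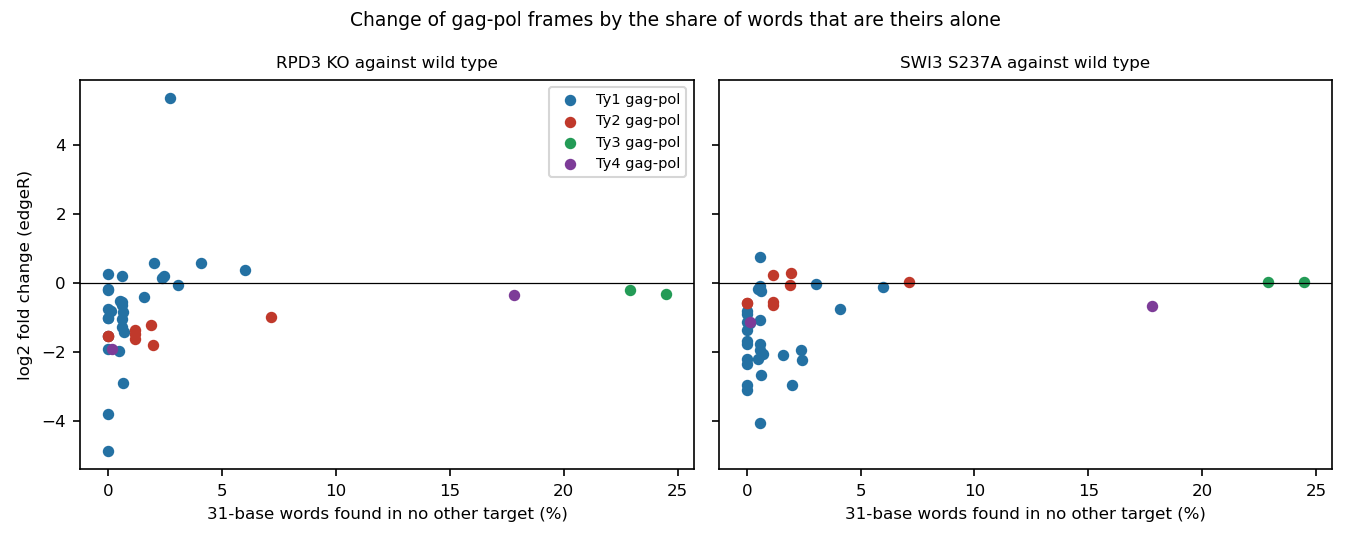
Log2 fold change (vertical axis, edgeR) of the tested gag-pol frames against the share of their 31-base words found in no other target (horizontal axis, %), for RPD3 KO (left) and SWI3 S237A (right), coloured by family. Fitted changes beyond 6 in size are left out (1 Ty1 frame in either panel). The points at 22.9 and 24.5% are the Ty3 frames, which lie near 0, and the widest spread is at the left edge, among frames with few or 0 words of their own.

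The other families differed from Ty1 in SWI3 S237A. Of 8 Ty2 gag-pol frames, 4 fell and 4 were not called, with a median log2 change of -0.32. YFL002W-A was at 126, 109 and 116 CPM and fell by 0.59 ± 0.11 on the log2 scale (edgeR adjusted p = 0.000721), as did its identical copy YGR161W-B. YOR192C-B was at 76.6 ± 6.42 CPM and fell by 0.57 ± 0.13 on the log2 scale (edgeR adjusted p = 0.00287). The Ty3 frames were level: YGR109W-B was at 90.9, 88.2 and 92.6 CPM against 81.7, 90.6 and 96.9 CPM (log2 0.01 ± 0.09, edgeR adjusted p = 0.903), and YIL082W-A at 78.5 ± 0.771 against 78 ± 6.54 CPM (log2 0.01 ± 0.09, edgeR adjusted p = 0.937). The Ty4 frame YJL113W was at 6.47 ± 0.862 CPM against 10.4 ± 1.23 CPM and fell by 0.68 ± 0.15 on the log2 scale (edgeR adjusted p = 0.00165). YHL009W-B was at 6.59 ± 0.755 CPM against 14.5 ± 2.16 CPM and was not called (log2 -1.14 ± 0.71, edgeR adjusted p = 0.191).

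**Figure D4:**
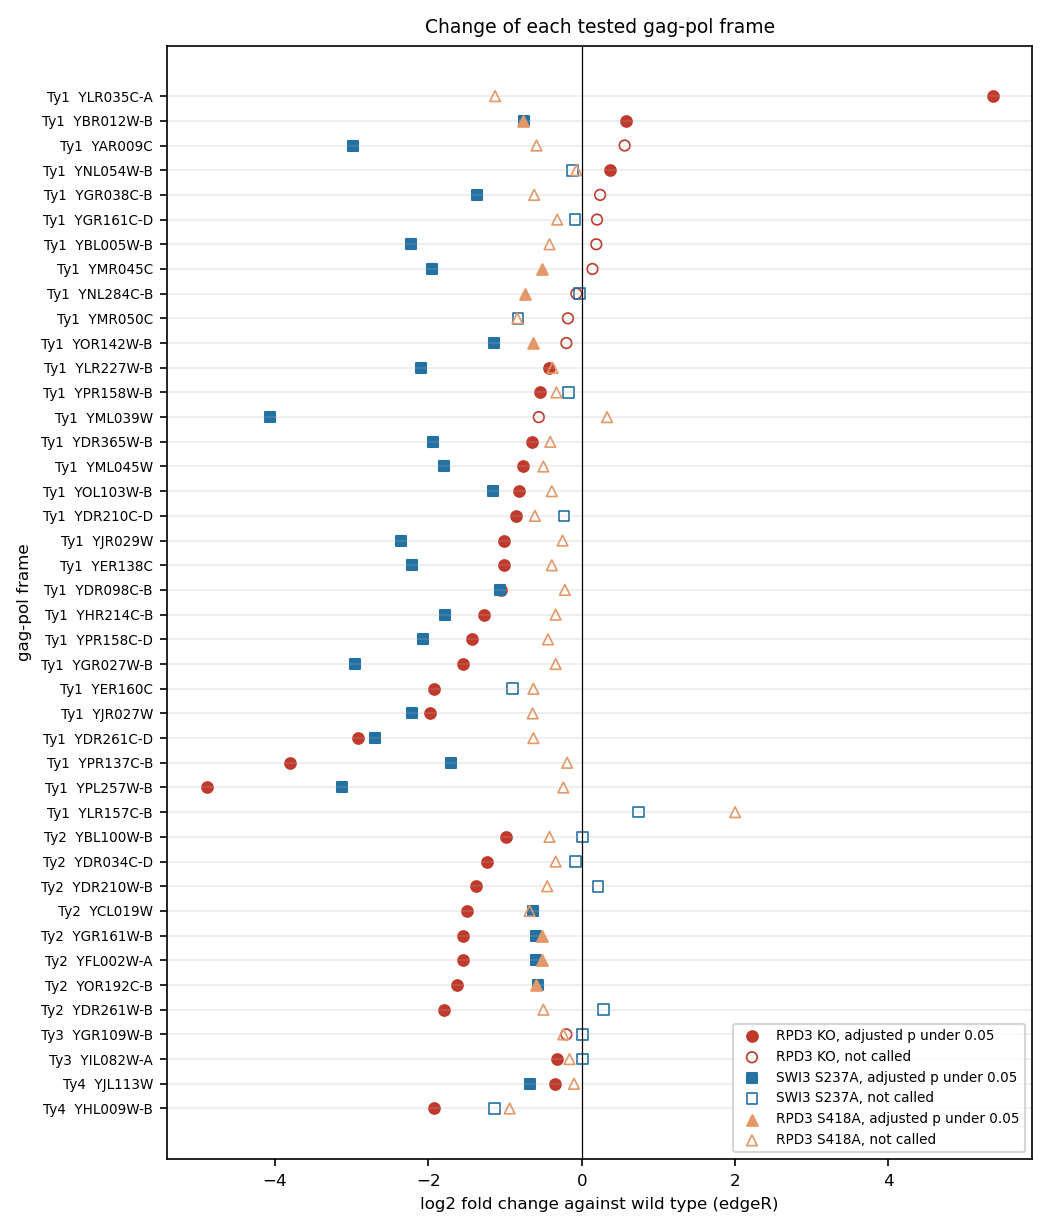
Log2 fold change against wild type (horizontal axis, edgeR) of each tested gag-pol frame (vertical axis, ordered by family and by the change in RPD3 KO), with filled symbols for an adjusted p under 0.05 and open symbols for the rest. Fitted changes beyond 6 in size (YLR035C-A in SWI3 S237A and YLR157C-B in RPD3 KO) are left out because those groups had 0 or nearly 0 counts. Squares for SWI3 S237A lie left of circles for RPD3 KO in most Ty1 frames and right of them in all 8 Ty2 frames.

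The 2 strong mutants therefore ranked the families differently, and the difference was tested frame by frame between SWI3 S237A and RPD3 KO. Of 8 Ty2 gag-pol frames, 8 were higher in SWI3 S237A than in RPD3 KO, with a median log2 difference of 1.03, where 64.4% of all targets tested were called (32.3% higher and 32.1% lower). Of 30 Ty1 gag-pol frames, 17 were lower, 3 were higher and 10 were not called, with a median of -0.64. YFL002W-A was 0.96 ± 0.12 higher on the log2 scale (edgeR adjusted p = 1.4e-05), and YDR365W-B 1.29 ± 0.12 lower (log2 -1.29, edgeR adjusted p = 1.46e-06). The Ty2 gag-pol sum was 551.6 ± 47 CPM in SWI3 S237A and 257.1 ± 27.2 CPM in RPD3 KO, and the Ty1 gag-pol sum 3277 ± 201 and 6674 ± 692 CPM. The 3 libraries of either strain did not overlap in either sum. YLR035C-A, at 140 ± 16.8 CPM in RPD3 KO and 0 counts in SWI3 S237A, was at least 1200-fold lower in the latter, with the floor of 3 counts per library. This fold too covers counting error only and is no lower bound on a change of its RNA, because most of its words occur in other copies.

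The gag frames behaved unlike the gag-pol frames of the same elements. All 7 had 0 counts in the wild type and RPD3 KO libraries and were read in every SWI3 S237A library. Their sum was 434, 561 and 482 CPM in SWI3 S237A replicates 2, 10 and 18, and 0, 95.2 and 186 CPM in RPD3 S418A replicates 3, 11 and 19. YDR098C-A was at 97.5, 102.9 and 60.7 CPM in SWI3 S237A, at least 626-fold above wild type with a floor of 3 counts per library. Such floors cover counting error only, and not reads assigned to other frames. YML045W-A was at 77.1, 77.4 and 83.4 CPM (at least 570-fold) and YGR027W-A at 71, 78.3 and 83.9 CPM (at least 559-fold). YDR316W-A and its identical copy YGR161C-C were at 58.2, 97.3 and 80.2 CPM each, and YAR010C and its identical copy YPR137C-A at 36, 54 and 46.7 CPM each. edgeR called all 7 higher in SWI3 S237A, but these frames passed the low-count filter only through the libraries in which they were read, so the count is no support for a change.

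All of these gag frames but YAR010C lie within the gag-pol frame of their own element. Every 31-base word of these gag frames also occurs in another target, so reads from them could have been counted elsewhere. The folds given for them are therefore no lower bounds on a change of their RNA. Over all 32 Ty1 gag frames in the files, gag took 0.323 ± 0.0436% of all Ty1 counts in wild type (SD, n = 3), 0.352 ± 0.0271% in RPD3 KO and 18.4 ± 2.81% in SWI3 S237A. In RPD3 S418A the share was 0.331, 1.64 and 3.71% in replicates 3, 11 and 19, so the libraries of this strain differed from each other by more than wild type did from RPD3 KO. Counts moving between gag and gag-pol do not change the sum over all Ty1 frames, which was 4012 ± 108 CPM in SWI3 S237A and 11340 ± 957 CPM in wild type, 35.4% of it. Whether the gag reads reflect RNA that ends within the element or the division of shared reads was not tested.

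**Figure D5:**
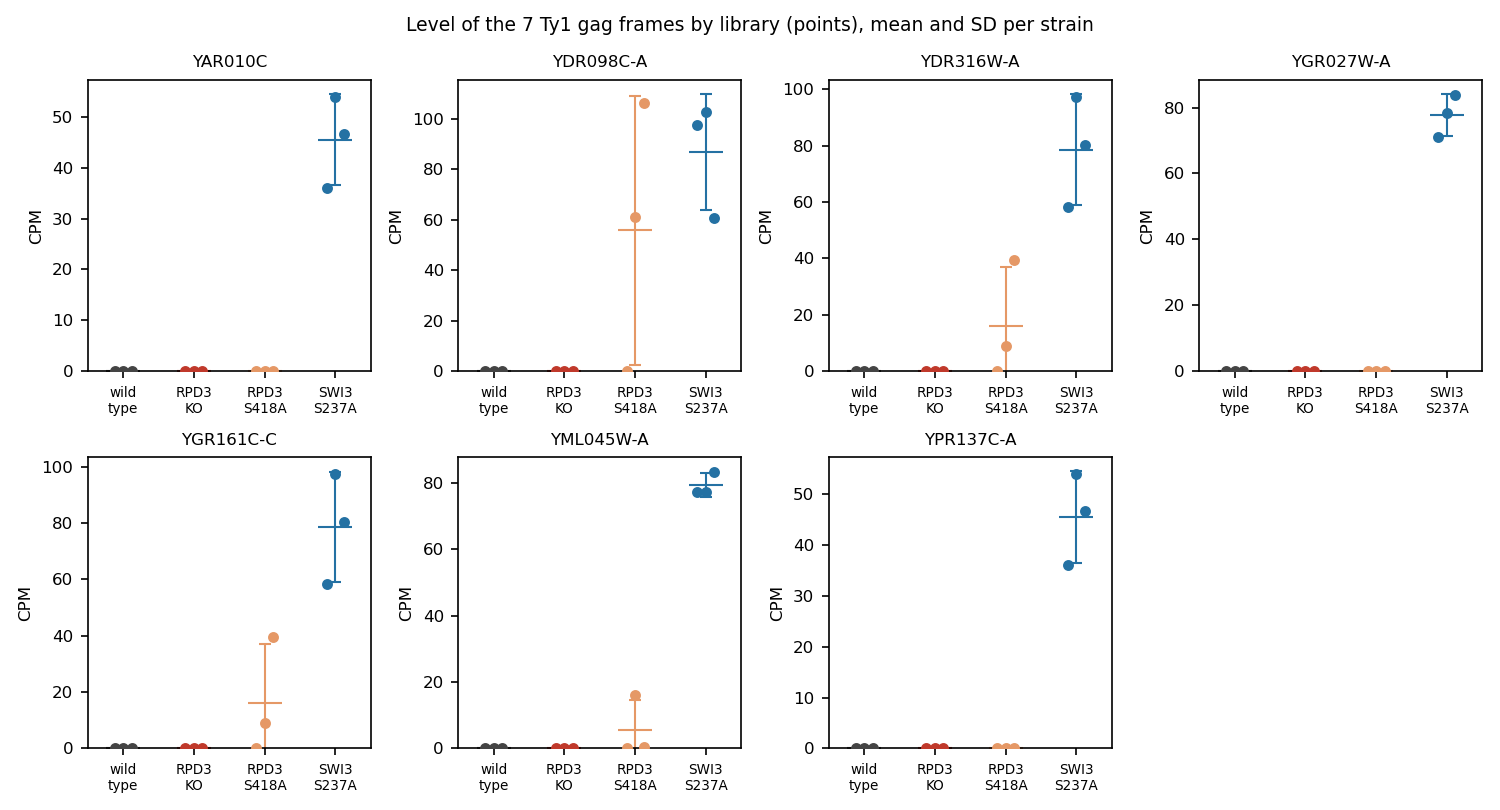
CPM (vertical axes, each from 0) of the 7 Ty1 gag frames in the 4 strains (horizontal axes), with a point per library, a bar for the mean and whiskers for the SD (n = 3). All wild type and RPD3 KO libraries are at 0, all SWI3 S237A libraries lie at 36 CPM or above, and in RPD3 S418A up to 2 of the 3 libraries were read.

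The point mutant RPD3 S418A lowered few single frames, although its summed Ty RNA was below wild type in all 3 libraries. Of 42 gag-pol frames tested, 7 fell, 0 rose and 35 were not called, where 2.02% of all targets tested were called by edgeR (0.822% higher and 1.20% lower). The fitted change was below 0 in 40 of the 42, with a median log2 of -0.43, against 0 over all targets tested. At an unadjusted p under 0.05, 26 were lower and 0 higher. No share over all targets was computed for these counts, and copies that share reads are not independent cases. The 7 were 4 Ty1 frames (YBR012W-B, YNL284C-B, YOR142W-B and YMR045C) and 3 Ty2 frames (YFL002W-A, YGR161W-B and YOR192C-B). YBR012W-B was at 55.8, 45.3 and 45.6 CPM in RPD3 S418A and 80.5, 79.2 and 89.8 CPM in wild type, and fell by 0.76 ± 0.11 on the log2 scale (edgeR adjusted p = 0.00293). YNL284C-B was at 65, 57.8 and 47.6 CPM against 99.3, 89.4 and 96.8 CPM, and fell by 0.74 ± 0.12 on the log2 scale (edgeR adjusted p = 0.00812). YFL002W-A fell by 0.52 ± 0.11 on the log2 scale (123 ± 17.9 against 176 ± 11.4 CPM; edgeR adjusted p = 0.0405). This call was lost with total counts as scaling (log2 -0.51, edgeR adjusted p = 0.0519), in a fit of the 2 strains alone (log2 -0.52, edgeR adjusted p = 0.161), and without wild type replicate 9, wild type replicate 17, RPD3 S418A replicate 11 or replicate 19 (log2 -0.55 to -0.43, edgeR adjusted p = 0.0676 to 0.146). The count depended on the libraries: it was 2 without wild type replicate 9, without wild type replicate 17, without RPD3 S418A replicate 11 or without replicate 19, and 12 without RPD3 S418A replicate 3. DESeq2 called 14 gag-pol frames lower and 0 higher. In the authors' deposited table, 2 of the 50 frames were lower, and the 2 higher were gag frames with 0 counts in wild type. Shares over all targets were not computed for these counts either.

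The point mutant and the deletion of RPD3 were also compared directly. Against RPD3 KO, 19 of 42 gag-pol frames were higher in RPD3 S418A, 10 were lower and 13 were not called, where 72.7% of all targets tested were called by edgeR (39.4% higher and 33.3% lower). The share of gag-pol frames called, 69%, is close to that of all targets. All 8 Ty2 gag-pol frames were among the 19, with log2 differences from 0.57 to 1.30. YPL257W-B was at 299 ± 63.4 CPM in RPD3 S418A, and 4.65 ± 0.85 higher on the log2 scale than in RPD3 KO (edgeR adjusted p = 0.000788). YPR137C-B was at 453 ± 14.9 CPM and 3.61 ± 0.54 higher (edgeR adjusted p = 0.000161). YLR035C-A was at 1.5 ± 1.01 CPM in RPD3 S418A, with a log2 difference of -6.49 ± 0.43 (edgeR adjusted p = 2.3e-06), and YBR012W-B had one of -1.35 ± 0.11 (edgeR adjusted p = 2.38e-07). The Ty3 frames were not called in this comparison (log2 -0.04 ± 0.09 and 0.16 ± 0.09).

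Genes known to act on Ty elements changed in both directions, as did the rest of the transcriptome, of which 69.9% was called in RPD3 KO and 60.0% in SWI3 S237A. Of 9 genes for transcription factors of Ty1 or Ty2, 3 rose, 3 fell and 3 were not called in RPD3 KO, and 5 rose and 4 fell in SWI3 S237A. The 6 of 9 called in RPD3 KO are about the share of all targets. TEC1, whose protein activates Ty1 together with Ste12, was at 122 ± 33.2 CPM in wild type, 22.6 ± 1.93 CPM in RPD3 KO (log2 -2.42 ± 0.18, edgeR adjusted p = 3.44e-07) and 44.1 ± 2.32 CPM in SWI3 S237A (log2 -1.46 ± 0.18, edgeR adjusted p = 2.89e-05). GCR1, which encodes an activator of glycolytic and Ty genes, was at 186 ± 1.78 CPM in wild type, 91.9 ± 4.25 CPM in RPD3 KO (log2 -1.01 ± 0.07, edgeR adjusted p = 8.16e-08) and 103 ± 1.97 CPM in SWI3 S237A (log2 -0.84 ± 0.07, edgeR adjusted p = 8.53e-07). RAP1, whose protein binds telomeres and many promoters, rose by 0.88 ± 0.07 on the log2 scale in RPD3 KO (edgeR adjusted p = 1.93e-07) and by the same amount in SWI3 S237A (edgeR adjusted p = 4.03e-07). GCN4, which encodes the activator of amino acid synthesis genes, rose in SWI3 S237A, from 968 ± 80.6 to 1910 ± 36.9 CPM (log2 0.98 ± 0.09, edgeR adjusted p = 1.22e-06). TEA1, named as an activator of Ty enhancers, rose in both, by 1.36 ± 0.13 and 1.26 ± 0.13 on the log2 scale (edgeR adjusted p = 8.55e-07 and 3.39e-06).

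Of 13 genes of the SAGA coactivator and other SPT genes, 2 rose and 2 fell in RPD3 KO, and 3 rose and 3 fell in SWI3 S237A. These are 4 and 6 of 13 called, below the 69.9% and 60.0% of all targets. SPT3, needed for normal initiation in the Ty1 repeat, was at 53 ± 0.57 CPM in wild type and 42 ± 0.968 CPM in SWI3 S237A (log2 -0.34 ± 0.06, edgeR adjusted p = 0.000469). SPT20, a structural SAGA subunit, fell by 0.66 ± 0.07 on the log2 scale in RPD3 KO (edgeR adjusted p = 1.62e-06), and SPT21, a regulator of histone genes, rose by 0.92 ± 0.12 (edgeR adjusted p = 2.22e-05). Of 5 SWI/SNF subunit genes, 3 rose and 1 fell in RPD3 KO and 3 rose and 0 fell in SWI3 S237A. The remodeller's ATPase gene SNF2 rose by 0.47 ± 0.09 on the log2 scale in SWI3 S237A (edgeR adjusted p = 0.000557).

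Of 14 host genes that act on Ty RNA or Ty DNA, 6 rose and 6 fell in RPD3 KO, and 5 rose and 2 fell in SWI3 S237A. The 12 of 14 called in RPD3 KO lie above the 69.9% of all targets, and the 7 of 14 in SWI3 S237A below the 60.0%. BUD22, a ribosome assembly gene needed for efficient Ty1 movement, was at 29.5 ± 3.11 CPM in wild type, 107 ± 2.36 CPM in RPD3 KO (log2 1.86 ± 0.10, edgeR adjusted p = 5.85e-09) and 42.4 ± 2.83 CPM in SWI3 S237A (log2 0.52 ± 0.10, edgeR adjusted p = 0.000578). RAD27, a flap endonuclease gene, rose by 0.99 ± 0.07 on the log2 scale in RPD3 KO (edgeR adjusted p = 1.4e-07), and DHH1, an RNA helicase of mRNA decay, fell by 0.81 ± 0.08 (edgeR adjusted p = 1.16e-06). Of 4 genes of the RNA polymerase III machinery, 1 rose and 0 fell in RPD3 KO and 2 rose and 2 fell in SWI3 S237A. RPC40, whose protein binds the Ty1 integrase, was at 139 ± 62.3 CPM in wild type and 294 ± 12.9 CPM in RPD3 KO (log2 1.08 ± 0.23, edgeR adjusted p = 0.0015). In RPD3 S418A, 1 of the 45 genes in these lists fell, a host gene, and 0 rose. The part of any of these genes in the Ty levels was not tested.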

How the data were processed

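RNA was measured in 12 libraries of 4 strains, 3 per strain. The submitters' processing notes name Trimmomatic 0.36, kallisto 0.44.0 and the R64 build. For kallisto no strand option is stated there. The deposited library files hold an estimated count and a TPM for each target, per the file headers, and 2 kinds of target length in bases. The authors' 3 deposited tables of comparisons hold a mean signal (baseMean), a log2 fold change, a Wald test score and p-values before and after adjustment, per the file headers.

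Rounded estimated counts of all targets entered 1 quasi-likelihood model of edgeR 4.0.16 (R 4.3.3; robust, TMM scaling, default low-count filter) over all 12 libraries and 6327 targets, with Benjamini-Hochberg adjustment over all of them and a threshold of 0.05. Single frames are given as CPM of the TMM-scaled library size, and sums over frames are means and SDs per strain with no test. Floors of 3 counts per library cover counting error only. Sequences, element names and 31-base words came from R64 in RefSeq, which matched 6008 of 6713 targets (705 not matched, so words shared with those were not counted), with Biopython 1.88. All 50 frames had the length given in the files. The family of YLR035C-A, which has no annotated element, was set by shared words.

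DESeq2 1.42.0, other scalings, no low-count filter, separate fits, TPM sums a replicate block and each library left out were alternatives. The method was tested on simulated data. The members and gene lists were chosen with earlier results of these data known. Frames named were the Ty3 and Ty4 frames, the 3 most abundant of each other class, the 3 largest rises and falls per comparison among called frames of at least 10 CPM on average, and frames with 0 counts in a whole strain; other frames named were chosen after their values were seen. Columns not used numbered 0.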

Additional observations from a re-analysis of the deposited data

How the results depend on the processing

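The summed Ty level kept its direction in each of the 5 comparisons under every alternative run. With total counts alone as scaling, its log2 ratio was -0.60 for RPD3 KO against wild type and -0.79 for SWI3 S237A against RPD3 KO. With TPM in place of CPM it was -0.54 (RPD3 KO), -0.91 (SWI3 S237A), 0.16 (RPD3 S418A against RPD3 KO) and -0.36 (SWI3 S237A against RPD3 KO). With gag-pol frames only it was -1.61 for SWI3 S237A and -0.82 for SWI3 S237A against RPD3 KO, and with all Ty frames, chosen after seeing the data, -1.32 for SWI3 S237A. Leaving out 1 library at a time gave -0.83 to -0.70 (RPD3 KO), -0.46 to -0.28 (RPD3 S418A), -1.48 to -1.37 (SWI3 S237A), 0.32 to 0.50 (RPD3 S418A against RPD3 KO) and -0.74 to -0.61 (SWI3 S237A against RPD3 KO). Counts of frames moved more. With total counts alone, 7 frames were higher in RPD3 KO (3 otherwise) and 4 lower in RPD3 S418A (7 otherwise). DESeq2 gave 14 lower and 3 higher in RPD3 S418A, the 3 all gag frames, and a fit of these 2 strains alone gave 2 lower. Leaving out 1 library gave 2 to 12 lower and 0 to 1 higher in RPD3 S418A, and 4 to 6 higher in SWI3 S237A, with 4 without SWI3 S237A replicate 18; those were counts over all 49 frames tested. Counting gag-pol frames only, chosen after seeing the data, left 0 higher in SWI3 S237A against wild type and 12 against RPD3 KO. Among 62 calls on single named frames, 863 alternatives gave 811 with the same call and direction, 52 that lost the call and 0 that reversed. The 863 include the setting with gag-pol frames only, which reuses the main fit. Its agreement on single frames was fixed in advance and is no sign of stability. The cause was not tested, except that fewer samples or frames enter some of these fits. The strains share no replicate number, but the label numbers fall into 3 sets (1 to 4, 9 to 12 and 17 to 20) with 1 library of each strain. Deviations from the strain means correlated above 0.1 in 4 of 18 pairs within a set (median 0.03, highest 0.27). Across sets they did so in 3 of 36 pairs (median -0.02, highest 0.17). The labels do not say what the sets are, and whether libraries of a set belong together was not tested. With the sets as a replicate block, chosen after seeing the data, 3 frames were higher in SWI3 S237A (7 otherwise, all gag), 9 were lower in RPD3 S418A, and the calls of YJL113W in RPD3 KO (log2 -0.35) and of YML039W in SWI3 S237A against RPD3 KO (log2 -3.86) were lost. At these depths a frame at 0 could have held up to 3 counts, or 0.109 to 0.169 CPM.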

Other observations

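The 41 Ty frames outside the list were read unevenly. Of the 2 other Ty2 gag-pol frames, YLR410W-B was at 162 CPM in wild type, 90.6 CPM in RPD3 KO, 120 CPM in RPD3 S418A and 121 CPM in SWI3 S237A, and YOR343W-B at 93.3, 98, 74.4 and 125 CPM in the same order (means of 3 libraries). By edgeR, YOR343W-B was not called in RPD3 KO (log2 0.07 ± 0.07, adjusted p = 0.383), fell in RPD3 S418A (log2 -0.33 ± 0.07, adjusted p = 0.0367) and rose in SWI3 S237A (log2 0.42 ± 0.07, adjusted p = 0.000237). The Ty1 gag frame YLR256W-A, unlike the 7 listed gag frames, was read in all strains, at 20.4 CPM in wild type, 7.89 CPM in RPD3 KO, 32.2 CPM in RPD3 S418A and 83.4 CPM in SWI3 S237A. The Ty1 gag frame YDR170W-A was at 16, 15.7, 15.2 and 20.3 CPM in the same order. The 25 Ty1 gag frames outside the list summed to 36.78 ± 6.97 CPM in wild type (SD, n = 3), 23.54 ± 3.19 CPM in RPD3 KO, 59.17 ± 30 CPM in RPD3 S418A and 242.7 ± 33.4 CPM in SWI3 S237A. The 10 Ty2 gag frames had 0 counts in all libraries other than RPD3 S418A replicates 11 and 19, where they summed to 6.69 and 10.4 CPM. These are the same libraries of that strain in which listed Ty1 gag frames were read.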
